A study of Mus musculus with 4 samples.

Results

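The chemokine system was described here in the infarcted mouse heart: the secreted chemokine ligands, the receptors that leukocytes use to follow them, and the atypical receptors that remove them. Members were all probes whose annotated symbol was a numbered Ccl, Ccr, Cxcl, Cxcr or Ackr gene, together with Cx3cl1, Cx3cr1, Xcl1, Xcr1 and Ccrl2. This gave 61 probes for 60 of the 19505 gene symbols named on the array, 38 ligands and 22 receptors, and the brighter probe was kept for the 1 symbol with 2.

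Expression was measured on Clariom S Mouse arrays in whole hearts of 4 male mice. Myocardial infarction had been produced at 8 weeks of age by tying off the left coronary artery, and the hearts were taken 3 months later. Control hearts (Ctrl-MI, n = 2) had the genotype Tcf21iCre/Tomato, and transgenic hearts (TTg-MI, n = 2) the genotype Tcf21iCre/Tomato/MGTH2A, so that both groups carried the Tcf21-driven Cre, the Tomato reporter and the infarct. MGTH2A is known as a construct for the cardiac factors Mef2c, Gata4, Tbx5 and Hand2, and Tcf21 is a gene of cardiac fibroblasts, which limits the model to cells in which that driver is active. Mice with an ejection fraction above 45% at the early echocardiogram had been removed, and no agent to induce the Cre is named in the labels. Arrays are named here by group and replicate number, as Ctrl-MI 1. The series asked how such reprogramming acts in chronic infarction, and the comparison here was TTg-MI against Ctrl-MI.

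Chemokines are small secreted proteins that bind to glycans on cells and matrix and form gradients along which leukocytes move. They are grouped as CC, CXC, CX3C and XC by the spacing of their first cysteines, and they act through G protein-coupled receptors of the Gi class. In the infarcted heart, CC ligands of the CCR2 axis are known for recruiting monocytes, the Glu-Leu-Arg (ELR) CXC ligands for recruiting neutrophils, and CXCL12 for its action through CXCR4.

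Values are log2 expression values, and 1 unit is a 2-fold step. Tbx5, a factor of the transgene, stood at 7.62 and 7.88 on the Ctrl-MI arrays and 10.68 and 9.72 on the TTg-MI arrays. Mef2c was also higher in TTg-MI without overlap, by 2.15. Gata4 and Hand2, the other factors, overlapped between the groups, with differences of 0.16 and 0.78. Tcf21, the gene of the driver, was lower in TTg-MI, at 8.96 and 8.30 against 7.26 and 7.26. Cardiomyocyte markers were well measured in all hearts (8 of 8 at or above the lower quartile on every array), so that the labelled tissue matched its markers. All 8 were higher on average in TTg-MI, beside 10103 of 19505 named symbols, with a median of 0.14. That median was 0.00021 with Ctrl-MI 1 left out. Atp2a2 held the highest value of every array (19.92 to 19.93), and its difference of 0.0028 is not read. The mean level of the 8 markers was 18.75 on Ctrl-MI 1 and 19.05 to 19.15 on the other arrays. Whether the hearts differed in tissue make-up was not tested. One control array stood apart from the rest: on the first principal component, with 58.4% of the variance, the control hearts scored -47.1 (Ctrl-MI 1) and -1.29 (Ctrl-MI 2), and the transgenic hearts 16.5 and 31.9. Ctrl-MI 2 also stood apart in some genes of atrial muscle (Myl4, Myl7 and Sln), with Myl4 at 7.70 against 14.61 to 16.34 on the other arrays. Other atrial markers did not have this pattern. Nppa stood at 19.90 on Ctrl-MI 2, and Bmp10 at 5.31 and 5.39 in Ctrl-MI against 12.38 and 11.82 in TTg-MI. Several results that rest on either control array are therefore also given with that array left out.

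Detection calls were not used here, and a value under the lower quartile of its array (5.41 to 5.48 log2 units) was treated as not shown to be above background. By this measure 40 of the 60 members were measured on all 4 arrays. The ligands accounted for 33 of these 40, and only 7 of the 22 receptors passed on every array (Ccr7, Cxcr1, Cxcr3, Cxcr4, Ackr2, Ackr3 and Ccrl2). The remaining 14 members were under the quartile on 1 to 3 arrays, and 6 were under it on all 4. Those 6 were Ccr3, Ccr4, Ccr6, Ccr9, Ackr1 and Cxcl17, for which no difference is read.

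No member passed limma with Benjamini-Hochberg adjustment over all probes, where 1 probe of 22206 was called (0.0045%). The smallest adjusted p of a member was 0.534. At an unadjusted limma p under 0.05, 11 of the 60 members were lower in TTg-MI (18.3%), beside 5.28% of all named symbols, and 2 were higher (3.33%), beside 3.21%. The 11 were Ccl9, Ccl6, Ccl8, Ccl3, Ccl21a, Ccl21b, Ccl21c, Cx3cl1, Cxcl5, Ccr2 and Ackr4, and the 2 were Ccl11 and Cxcl17, of which Cxcl17 is in the count only and not read as a difference, being under the quartile on all arrays. As the Ccl21 probes read near-identical genes, counting them once gave 9 lower of 58 (15.5%).

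For 18 members (30%) the higher TTg-MI value was under the lower Ctrl-MI value, beside 19.1% of all named symbols, and for 8 (13.3%) the order was the opposite, beside 19.2%. The median log2 difference of the members was -0.15, where all named symbols gave 0.0086, and 39 of 60 were lower on average in TTg-MI, beside 48.2%. Among the 45 members whose mean over the 4 arrays reached the mean lower quartile, the median was -0.16 and 10 were lower at an unadjusted limma p under 0.05 (22.2%, beside 6.81% of symbols chosen the same way) and 1 was higher (beside 4.1%). Of these 45, 13 were lower without overlap (beside 20.9%), 6 were higher without overlap (beside 18.9%) and 29 were lower on average (beside 49.5%). The 60 members share the same 4 arrays and are not independent. Ctrl-MI 1 held the highest of the 4 values for 30 members (50%, beside 29.7% of named symbols), and TTg-MI 2 the lowest for 25 (41.7%, beside 24.3%).

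Leaving out single arrays moved these counts, each of which is out of the 60 members. With Ctrl-MI 1 left out, 7 members were lower at an unadjusted limma p under 0.05 (beside 3.92% of named symbols) and 0 higher (beside 2.53%). With Ctrl-MI 2 left out, 14 were lower (beside 8.01%) and 1 higher (beside 7.34%). With TTg-MI 1 left out, 9 were lower (beside 3.81%) and 1 higher (beside 2.14%), and with TTg-MI 2 left out 6 were lower (beside 2.55%) and 1 higher (beside 1.43%).

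Members past the adjusted threshold in limma numbered 0 with Ctrl-MI 1 left out, where 0.00901% of probes passed, and 0 with either TTg-MI array left out, where 0.0045% did. With Ctrl-MI 2 left out, 5 members passed (Ccl9, Ccl6, Ccl8, Ccl12 and Cxcl13, all lower), where 1.5% of probes did. Over the same omissions (Ctrl-MI 1, Ctrl-MI 2, TTg-MI 1, TTg-MI 2), members lower without overlap numbered 25 of 60, 36 of 60, 32 of 60 and 22 of 60. The shares of all named symbols were 33.4%, 36.5%, 32.8% and 33%. Members higher without overlap numbered 19 of 60, 13 of 60, 12 of 60 and 13 of 60, where the shares of all named symbols were 35.8%, 36.7%, 35% and 33.4%. The arrays are described as independent biological replicates in the series, and their number limits the precision.

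**Figure D1:**
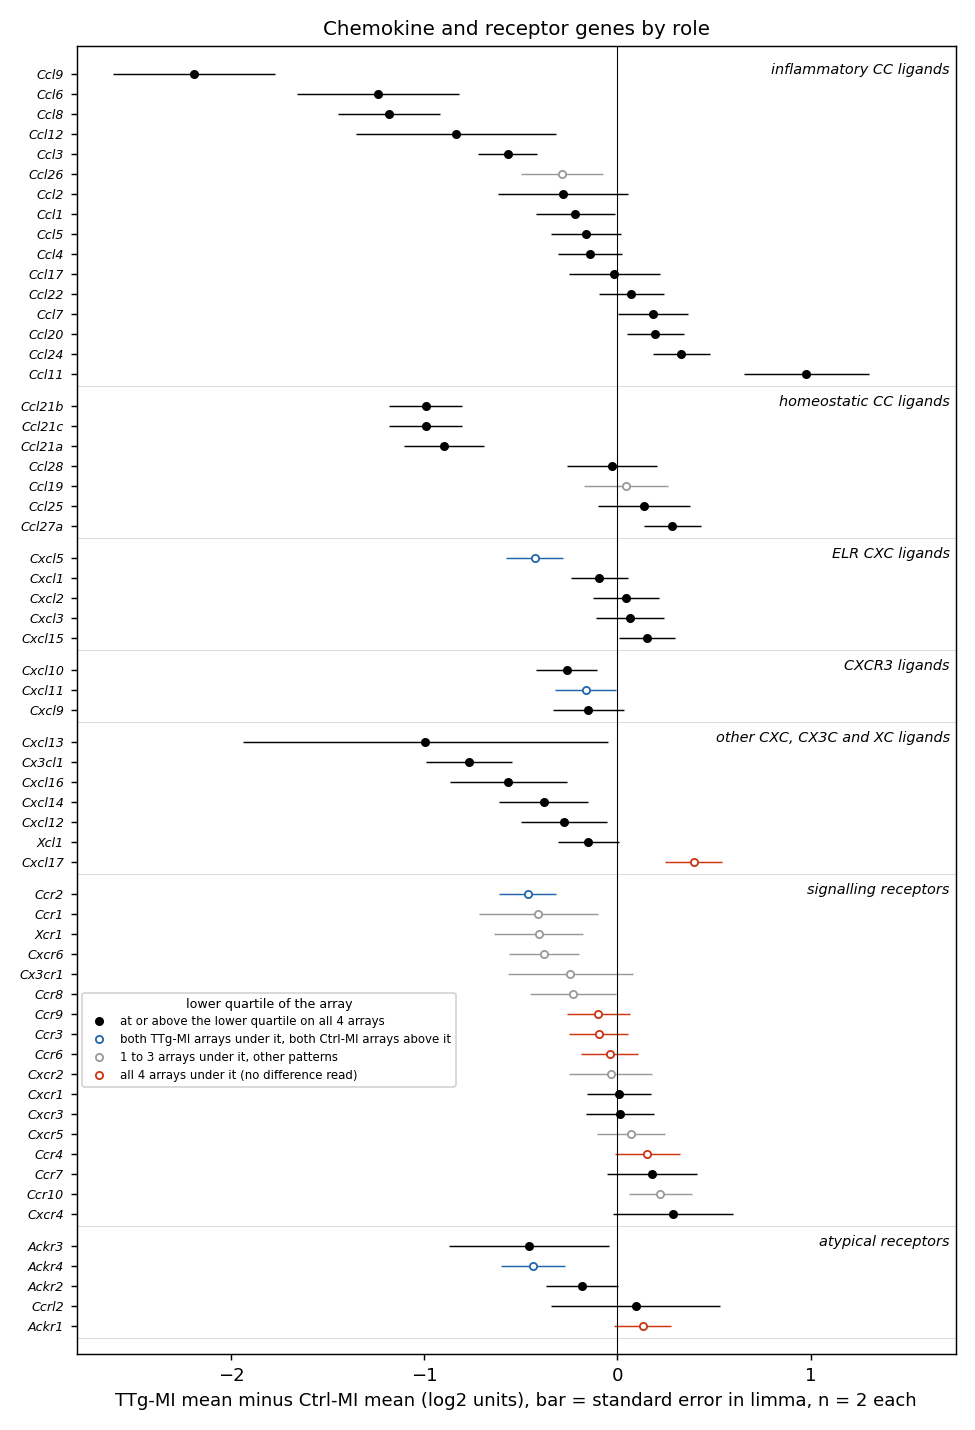
The log2 difference (TTg-MI mean minus Ctrl-MI mean, horizontal axis) of each of the 60 genes, grouped by role, with the standard error in limma as the bar and n = 2 in each group. Filled points were at or above the lower quartile on all 4 arrays, and open points were under it on some or all arrays. Ccl9 lies farthest to the left at -2.19 and Ccl11 farthest to the right at 0.98, while most receptors are open points near 0.

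The 3 members that differed by more than 1 log2 unit, Ccl9, Ccl6 and Ccl8, are CC ligands of chromosome 11, Ccl9 and Ccl6 being neighbours and Ccl8 lying in a separate run of CC genes. Before their values, the 250 bases upstream of the annotated start are shown for Ccl9, Ccl6, Ccl3 and Ccl8, the chromosome 11 ligands whose groups did not overlap and were lower in TTg-MI, so that what these starts share can be seen. The sequences are RefSeq's in build GRCm38.p6, written 5′ to 3′ on the gene's strand. They lie at chr11:83578637-83578886 (minus strand) for Ccl9, chr11:83593088-83593337 (minus strand) for Ccl6, chr11:83649379-83649628 (minus strand) for Ccl3 and chr11:82114935-82115184 (plus strand) for Ccl8. Capitals mark motif matches and, in Ccl9 and Ccl6, their longest shared run.
Ccl9: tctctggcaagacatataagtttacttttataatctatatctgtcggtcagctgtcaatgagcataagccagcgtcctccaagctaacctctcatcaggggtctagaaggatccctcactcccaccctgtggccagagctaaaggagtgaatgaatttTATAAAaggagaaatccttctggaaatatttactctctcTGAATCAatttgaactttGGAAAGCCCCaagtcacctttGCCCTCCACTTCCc
Ccl6: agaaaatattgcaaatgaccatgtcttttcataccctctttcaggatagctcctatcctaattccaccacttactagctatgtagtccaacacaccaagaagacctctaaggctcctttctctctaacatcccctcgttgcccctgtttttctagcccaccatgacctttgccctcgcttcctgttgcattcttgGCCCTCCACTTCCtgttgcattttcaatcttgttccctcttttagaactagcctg
Ccl3: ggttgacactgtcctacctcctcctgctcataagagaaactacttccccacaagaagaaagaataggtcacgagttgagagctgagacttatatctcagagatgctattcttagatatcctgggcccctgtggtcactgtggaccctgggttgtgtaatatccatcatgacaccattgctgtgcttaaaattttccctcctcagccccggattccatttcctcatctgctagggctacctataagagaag
Ccl8: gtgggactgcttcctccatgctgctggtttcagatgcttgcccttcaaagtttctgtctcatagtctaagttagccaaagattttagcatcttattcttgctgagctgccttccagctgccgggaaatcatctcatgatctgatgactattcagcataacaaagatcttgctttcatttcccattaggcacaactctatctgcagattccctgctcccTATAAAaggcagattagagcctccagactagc

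The run GCCCTCCACTTCC, of 13 bases, was common to Ccl9 and Ccl6. It begins 14 bases before the start of Ccl9 and 55 bases before that of Ccl6, and was present on either strand in 5 of all 32851 RefSeq promoters (0.0152%). That count includes Ccl9 and Ccl6 themselves. As the run was picked as the longest that their sequences share, its rarity is not separate evidence of a shared element. The longest run shared by any other pair of these 4 was 9 bases, TATAAAAGG, in Ccl9 and Ccl8. Over their whole length the aligned Ccl9 and Ccl6 sequences were 50% identical, within the 48.1% to 54.2% seen between the other pairs.

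The search covered 9 motifs in the 250 bases upstream of each start. The NF-kB, MEF2 and IRF motifs were searched by their standard consensus. The PU.1 motif was GAGGAAGT, and the C/EBP motif was TTGCNNAA. The AP-1 motif was spelled TGANTCA. For GATA factors the letters searched were AGATAAG, and for TBX5 they were AGGTGTGA. The TATA box, TATAAA, was read on the gene's strand only, and the other motifs on both strands. Ccl9 held an NF-kB match 35 to 26 bases before its start, on the minus strand, an AP-1 match at 53 to 47 and a TATA box at 92 to 87. Ccl8 held a TATA box 32 to 27 bases before its start. Ccl6 and Ccl3 held none of the 9 motifs in this window. None of the marked matches overlapped another.

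Promoters were listed for 45 of the 60 members, with 51 starts in all. An NF-kB match was found in 10 of the 51 (19.6%), beside 3.90% of all promoters, and a TATA box in 12 (23.5%), beside 7.59%. The IRF motif was found in 3 (5.88%, beside 2.98%), AP-1 in 5 (9.80%, beside 6.75%), C/EBP in 5 (9.80%, beside 9.56%) and GATA in 2 (3.92%, beside 2.74%). PU.1, MEF2 and TBX5 were each found in 1 (1.96%), beside 2.44%, 2.92% and 1.12%. NF-kB matches lay upstream of Ccl9, Ccl20, Cxcl1, Cxcl2, Cxcl3, Cxcl10, Ccrl2, Ackr2, Ccr3 and Ccr6. Of these genes Ccl9 differed most. Leaving aside Ccr3 and Ccr6, for which no difference is read, the other differences ran from -0.26 (SE 0.16) for Cxcl10 to 0.20 (SE 0.15) for Ccl20. These are small beside their errors, so their directions are not established, and a part of the motif in them was not tested.

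Ccl9, a myeloid CC ligand of CCR1, stood at 11.72 and 10.48 on the Ctrl-MI arrays and at 9.11 and 8.71 on the TTg-MI arrays. Every TTg-MI array was thus below every Ctrl-MI array, and the group means of 11.10 ± 0.88 and 8.91 ± 0.28 (SD, n = 2 each) were 4.57-fold apart. The log2 difference was -2.19 (SE 0.42, limma adjusted p = 0.534), and it was -1.57 with Ctrl-MI 1 left out and -2.81 with Ctrl-MI 2 left out. It passed the adjusted threshold of limma with Ctrl-MI 2 left out (adjusted p = 0.0309) and under no other of the 11 alternatives run. Macrophage markers had mean levels of 9.72 and 8.71 in Ctrl-MI and 8.40 and 8.13 in TTg-MI, the same order of arrays as for Ccl9. That order was not particular to them. The fibroblast list had it (13.44 and 12.62 against 12.21 and 11.34), as did the monocyte list (7.60 and 6.91 against 6.54 and 6.53) and the first principal component. The part of these lists in the Ccl9 result was not tested. In whole-heart RNA, fewer cells of a type and less RNA per cell cannot be told apart.

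Ccl6, its neighbour on the chromosome and another ligand of CCR1, stood at 9.84 and 8.53 in Ctrl-MI and at 7.93 and 7.96 in TTg-MI. The groups did not overlap, but the gap between the control arrays was wider than the gap from the lower control array to the TTg-MI arrays. The difference of -1.24 (SE 0.42, limma adjusted p = 0.572) was -0.59 when Ctrl-MI 1 was omitted and -1.90 when Ctrl-MI 2 was.

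Ccl3, a macrophage inflammatory protein that binds CCR1, stood at 6.24 and 6.35 in Ctrl-MI against 5.69 and 5.76 in TTg-MI. Replicates were close together and the groups did not overlap, with a difference of -0.57 (SE 0.15, limma adjusted p = 0.546). Ccl3 was dim, however, under the array median on all 4 arrays and close to the lower quartile in TTg-MI. Ccl4, encoded beside it and related in sequence, overlapped between the groups at 5.80 and 6.04 against 5.83 and 5.72. Ccl5, a T cell chemokine at the other end of this run of genes, also overlapped, with a difference of -0.16 (SE 0.18). The annotated Ccl3 and Ccl4 gene models overlap, and how the probe sets treat the overlap was not tested.

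Ccr1, the receptor for Ccl9, Ccl6 and Ccl3, lay near the lower quartile, at 6.03 and 5.33 in Ctrl-MI and 5.55 and 4.99 in TTg-MI. One array of each group was under the quartile, and the groups overlapped.

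The second run on chromosome 11 holds the monocyte chemoattractants and eotaxin in the order Ccl2, Ccl7, Ccl11, Ccl12, Ccl8, Ccl1, with no other protein-coding gene between them in the RefSeq table. Unlike the run of Ccl5, Ccl9, Ccl6, Ccl3 and Ccl4, where the TTg-MI mean was lower for 5 of 5, its members went both ways. The TTg-MI mean was lower for 4 of 6.

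Ccl8, a monocyte chemoattractant known in the mouse as a ligand of CCR8, stood at 7.04 and 6.31 in Ctrl-MI and at 5.51 and 5.48 in TTg-MI. The TTg-MI values were close to the lower quartile, and both were below both control arrays. The difference was -1.18 (SE 0.26, limma adjusted p = 0.546), or 2.27-fold. It was -0.82 with Ctrl-MI 1 left out and -1.55 with Ctrl-MI 2 left out. Ccr8 was under the quartile on 3 of 4 arrays.

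Ccl11, the eotaxin that attracts eosinophils through CCR3, was the member with the largest higher value in TTg-MI, at 6.99 and 7.69 against 6.04 and 6.69 in Ctrl-MI. The groups did not overlap. The difference of 0.98 (SE 0.32, limma adjusted p = 0.572) was 0.65 when Ctrl-MI 1 was omitted and 0.63 when TTg-MI 2 was. Ccl24, a second eotaxin, encoded on chromosome 5, had replicates close together at 6.60 and 6.60 against 6.95 and 6.91. Its difference was 0.33 (SE 0.15, limma adjusted p = 0.627), and it stayed between 0.31 and 0.35 as each array was left out. Their receptor Ccr3 was under the lower quartile on all 4 arrays. Of 7 markers of mast cells and eosinophils, 3 were lower and 4 higher, with a median of 0.07, and 0 had an unadjusted limma p under 0.05. Only 2 of the 7 were at or above the lower quartile on every array, so the list says little about these cells.

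The differences of Ccl12 and Ccl2, ligands of CCR2 on inflammatory monocytes, rested on Ctrl-MI 1. Ccl12 stood at 7.71 there, and at 6.08 on the other control array, while TTg-MI gave 6.20 and 5.93. Ccl2, the best known monocyte chemoattractant, likewise stood at 7.54 there and at 6.54, 6.78 and 6.73 on the others. Without Ctrl-MI 1 the Ccl12 difference went from -0.83 to -0.016, and that of Ccl2 from -0.28 to 0.22. Ccl7 overlapped between the groups, at 6.56 and 6.41 against 6.83 and 6.52.

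Ccr2 itself stood at 5.79 and 5.72 in Ctrl-MI and at 5.30 and 5.29 in TTg-MI, where both arrays were under the quartile. The difference of -0.46 (SE 0.15, limma adjusted p = 0.571) is therefore uncertain in size and is not established. The remaining inflammatory CC ligands, Ccl1, Ccl5, Ccl17, Ccl20, Ccl22 and Ccl26, differed by -0.29 to 0.20, and their groups overlapped except for Ccl20, at 6.09 and 6.12 against 6.31 and 6.29. Ccl26 was under the quartile on 3 of 4 arrays.

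**Figure D2:**
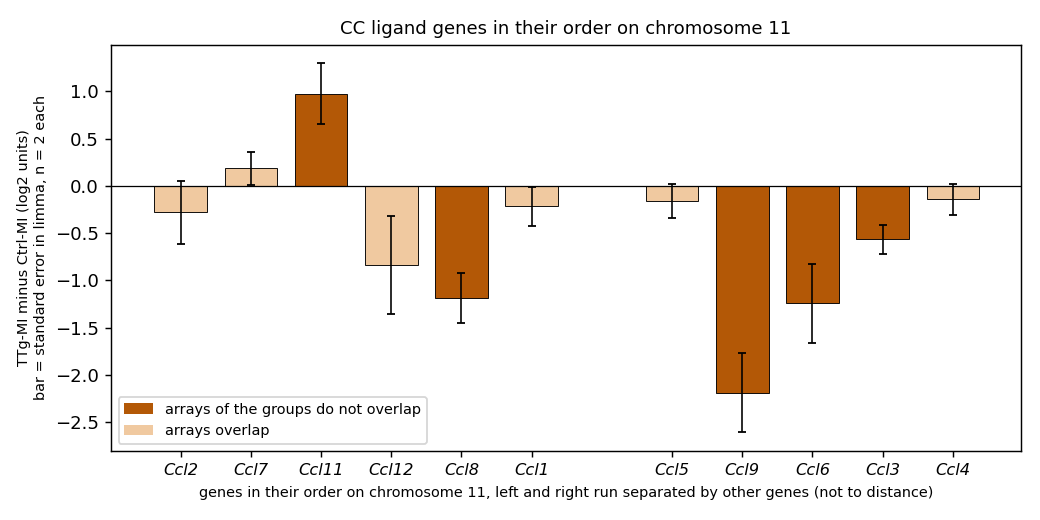
Log2 differences (TTg-MI minus Ctrl-MI, vertical axis, bars from 0 with the standard error in limma, n = 2 each) of the CC ligand genes in their order along both chromosome 11 runs. Dark bars mark genes whose arrays do not overlap between groups: Ccl8, Ccl9, Ccl6 and Ccl3 point down and Ccl11 points up.

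Among the CC ligands made without inflammation, the Ccl21 genes had the clearest separation. CCL21 is made by lymphatic vessels and lymph nodes and guides dendritic cells and T cells through CCR7. Ccl21a stood at 12.13 and 12.62 in Ctrl-MI and at 11.49 and 11.48 in TTg-MI, both TTg-MI arrays being below both control arrays. The difference was -0.90 (SE 0.21, limma adjusted p = 0.546), or 1.86-fold. It was -1.14 with Ctrl-MI 1 left out and -0.65 with Ctrl-MI 2 left out. The probes of Ccl21b and Ccl21c held identical values on every array and differed from that of Ccl21a by at most 0.10, so that these near-identical genes cannot be told apart and count as 1 measurement. The dimmer Ccl21b probe gave a difference of -0.95.

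Beside Ccl21, 4 of 5 lymphatic endothelial markers had a lower TTg-MI mean. Flt4, the receptor of lymphatic growth, differed by -0.48 (SE 0.15), and Prox1, which cardiomyocytes also express, by 1.33 (SE 0.49). The median of the list was -0.37, and -0.19 with Ctrl-MI 1 left out. Its mean level was 8.27 and 8.28 in Ctrl-MI and 8.25 and 8.07 in TTg-MI. The summed level ran from 10.96 to 11.67 in Ctrl-MI and 11.98 to 12.19 in TTg-MI, but that sum is mostly Prox1. No marker was under the lower quartile on any array. Its part in the Ccl21 result was not tested. Jchain, a plasma cell marker, stood at 8.72 and 8.51 against 5.85 and 6.13, and all 5 markers of B and plasma cells were lower on average, with summed levels of 9.19 to 9.31 in Ctrl-MI and 7.95 to 7.96 in TTg-MI. Jchain carries that sum, its difference being -2.63, and the other 4 markers differed by -0.34 to -0.12.

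Ccr7, the receptor for CCL21, overlapped between the groups at 7.45 and 6.87 against 7.40 and 7.28. Ccl19, its other ligand, was under the quartile on 3 of 4 arrays. Ackr4, an atypical receptor that takes up CCL19, CCL21 and CCL25, stood at 5.64 and 5.63 in Ctrl-MI and 5.33 and 5.07 in TTg-MI. As both TTg-MI arrays were under the quartile, its difference of -0.44 (SE 0.17, limma adjusted p = 0.590) is uncertain in size and is not established.

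The other CC ligands of this kind were Ccl25 of the thymus and gut, Ccl27a of the skin and Ccl28 of mucosal epithelium. They differed by 0.14, 0.28 and -0.03. Of these 3, Ccl27a alone did not overlap between groups, at 7.40 and 7.37 against 7.64 and 7.70. Ccl27a has a near-identical copy, Ccl27b, which was not analysed here, so its values are uncertain. Ccr10, the receptor for CCL27 and CCL28, lay near the quartile at 5.35 and 5.45 against 5.74 and 5.50, without overlap.

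The ELR ligands, which attract neutrophils through CXCR2, showed small differences. Cxcl1, Cxcl2, Cxcl3 and Cxcl15 differed by -0.09 to 0.15. Cxcl5 stood at 5.71 and 5.74 against 5.25 and 5.34, with both TTg-MI arrays under the quartile. Its difference of -0.43 (SE 0.15, limma adjusted p = 0.580) is therefore uncertain in size and is not established. Cxcr2 and Cxcr1, the receptors, overlapped between the groups. Neutrophil markers stood at a mean of 5.64 and 5.56 in Ctrl-MI and 5.61 and 5.68 in TTg-MI, close to the lower quartile, and S100a8 was under it on all arrays.

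The interferon-induced ligands of CXCR3, a receptor of activated T cells and NK cells, were dim as well. Cxcl10 stood at 6.02 and 5.93 against 5.62 and 5.80, without overlap, and differed by -0.26 (SE 0.16, limma adjusted p = 0.737). Cxcl9 overlapped between the groups at 5.89 and 5.92 against 5.57 and 5.94. Cxcl11 was under the quartile on both TTg-MI arrays, and it is listed as a transcribed pseudogene in the mouse RefSeq table. Cxcr3 differed by 0.01 (SE 0.18).

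Cx3cl1, or fractalkine, a chemokine held on the endothelial membrane that binds CX3CR1 on monocytes and macrophages, did not overlap between groups. It stood at 7.80 and 7.38 in Ctrl-MI and 7.01 and 6.63 in TTg-MI, with a difference of -0.77 (SE 0.22, limma adjusted p = 0.546). Cx3cl1 differed by -0.56 with Ctrl-MI 1 left out and by -0.98 with Ctrl-MI 2 left out. Its receptor Cx3cr1 overlapped, at 6.08 and 5.87 against 6.20 and 5.27, and the low value was that of TTg-MI 2 alone. Of 8 blood endothelial markers, 4 were lower and 4 higher, with summed levels of 16.02 to 16.30 in Ctrl-MI and 15.82 to 16.26 in TTg-MI.

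Cxcl12, which retains and recruits progenitors and leukocytes through CXCR4, stood at 11.95 and 11.49 in Ctrl-MI and 11.60 and 11.28 in TTg-MI. The groups overlapped, and the difference of -0.28 (SE 0.22, limma adjusted p = 0.818) ran from -0.50 to -0.05 over the omissions of 1 array, and was smallest in size without Ctrl-MI 1. Its receptor Cxcr4 stood at 7.21 and 7.10 against 7.90 and 6.99, the high value being on TTg-MI 1. Ackr3, which takes up CXCL12, stood at 10.35 and 10.86 against 10.74 and 9.55, with TTg-MI 2 as the low array. The difference of Ackr3 was -0.46 (SE 0.41), and it was 0.14 without TTg-MI 2.

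Cxcl16, a transmembrane ligand of CXCR6, stood at 9.78 and 9.38 in Ctrl-MI and at 9.41 and 8.62 in TTg-MI. The groups overlapped, and the difference of -0.57 (SE 0.30, limma adjusted p = 0.695) ran from -0.96 to -0.17 over such omissions, and was smallest in size without TTg-MI 2. Cxcr6 was under the quartile on 3 of 4 arrays. Cxcl14, found in fibroblasts and epithelia, also overlapped between the groups, with a difference of -0.38 (SE 0.23) that ran from -0.63 to -0.13 as single arrays were left out.

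Cxcl13, which draws B cells through CXCR5, had the widest spread within a group of any member. It stood at 9.37 on Ctrl-MI 1 and at 6.30 on Ctrl-MI 2, against 6.60 and 7.08 in TTg-MI. The difference of -0.99 (SE 0.94, limma adjusted p = 0.851) turned to 0.54 when Ctrl-MI 1 was omitted and -2.53 when Ctrl-MI 2 was, where alone of the 11 alternatives it passed limma (adjusted p = 0.0309). Cxcr5 was under the quartile on 3 of 4 arrays. Xcl1, a lymphocyte ligand, differed by -0.15 (SE 0.16), and its receptor Xcr1 was under the quartile on 3 of 4 arrays.

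**Figure D3:**
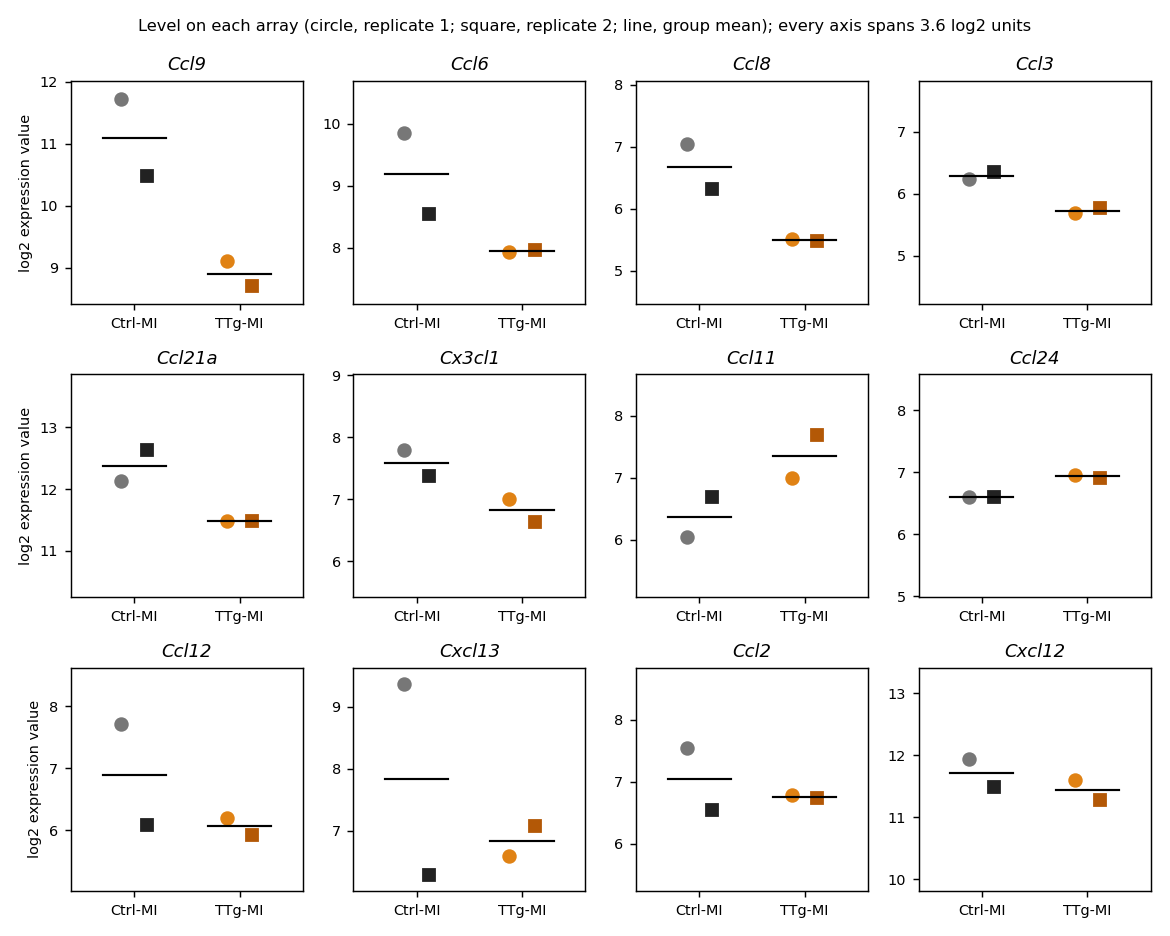
The log2 expression value of 12 chemokine genes on each array, with circles for replicate 1, squares for replicate 2 and a line at the group mean, on axes of equal span. Ccl9, Ccl8, Ccl3, Ccl21a and Cx3cl1 are lower on both TTg-MI arrays and Ccl11 and Ccl24 higher, whereas the control mean of Ccl12, Cxcl13 and Ccl2 is raised by Ctrl-MI 1.

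Of the atypical receptors not yet given, Ackr2, a scavenger of inflammatory CC ligands, stood at 6.05 and 5.96 against 6.01 and 5.64, with overlap. Ccrl2, which presents chemerin, stood at 7.79 and 8.75 in Ctrl-MI and 7.88 and 8.86 in TTg-MI, so that the arrays sharing a replicate number were alike and the groups overlapped. Of the 17 signalling receptors, 1 (Ccr2, 5.88%) was lower at an unadjusted limma p under 0.05, close to the 5.28% of all named symbols, and 15 lay under the array median on all 4 arrays. Both partners were measured on all arrays for 5 of the listed ligand and receptor pairs. Cxcl12 differed by -0.28, beside 0.29 for Cxcr4 and -0.46 for Ackr3. Ccl21a differed by -0.90, beside 0.18 for Ccr7. Cxcl9 and Cxcl10 differed by -0.15 and -0.26, beside 0.01 for Cxcr3.

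Of the marker lists of cells that make or follow these ligands, those of macrophages, monocytes and fibroblasts were lower in TTg-MI, as several members were. Those of dendritic cells, T cells, NK cells and neutrophils had medians near 0, of -0.01, -0.0063, -0.09 and 0.04. Only 3 of 7, 2 of 6, 1 of 6 and 3 of 6 of their markers, in the same order, were at or above the lower quartile on every array. A small median in these lists therefore does not show that the cells were unchanged. All 12 measured macrophage markers were lower on average in TTg-MI, with a median difference of -0.96 and 5 lower at an unadjusted limma p under 0.05, which 5.28% of all named symbols were. The median was -0.42 with Ctrl-MI 1 left out and -1.56 with Ctrl-MI 2 left out. Their summed level ran from 13.99 to 15.28 in Ctrl-MI and 12.70 to 13.53 in TTg-MI, and 12 of 12 markers were at or above the lower quartile on every array. Monocyte markers were lower for 6 of 6, with a median of -0.44 (-0.39 with Ctrl-MI 1 left out) and summed levels of 10.85 to 12.54 against 9.83 to 10.37. That sum is mostly Fn1, a matrix gene that fibroblasts also express, at 12.34 and 10.36 against 9.88 and 8.92, so it is not a measure of monocytes. Chil3 was under the quartile on all arrays.

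Fibroblast markers were lower for 9 of 9, with a median of -1.30 and summed levels of 19.24 to 19.87 against 18.46 to 18.96. At an unadjusted limma p under 0.05, 6 were lower, beside 5.28% of all named symbols. The median was -0.80 with Ctrl-MI 1 left out and -0.68 with TTg-MI 2 left out. Dendritic cell markers were lower for 5 of 7 and T cell markers for 3 of 6, with medians of -0.01 and -0.0063, and NK cell markers for 4 of 6, with a median of -0.09. As single arrays were left out, these medians ran from -0.15 to 0.08 for dendritic cells, from -0.11 to -0.0035 for T cells and from -0.12 to 0.03 for NK cells. The part of these lists in the chemokine results was not tested.

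**Figure D4:**
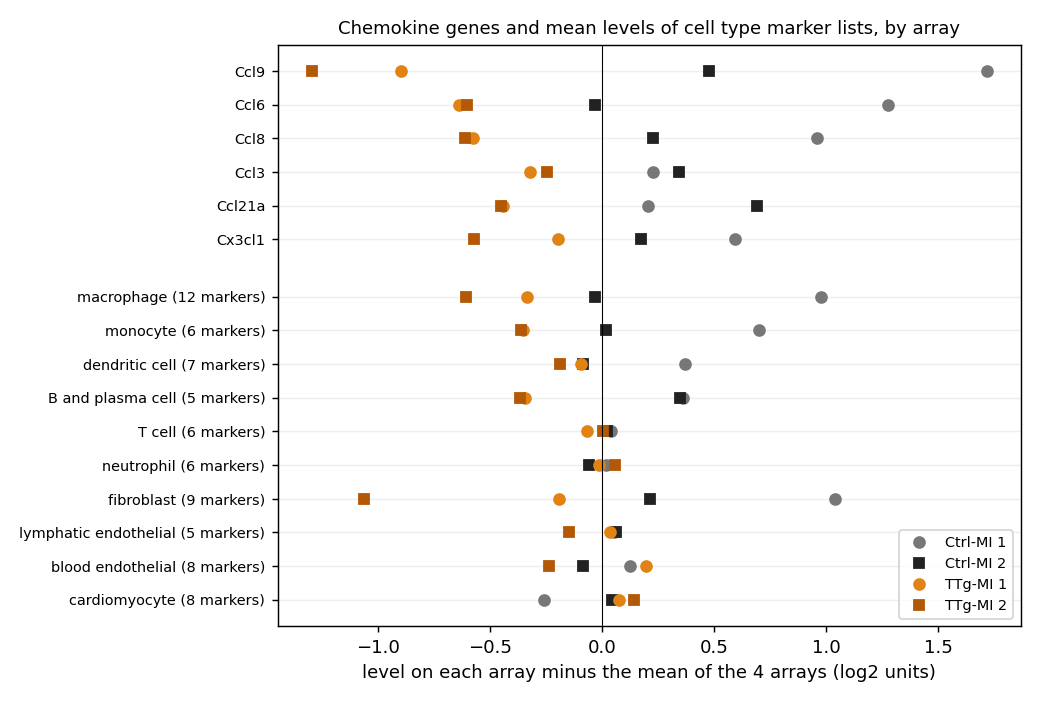
Level on each array minus the mean of the 4 arrays (log2 units, horizontal axis) for 6 chemokine genes and for the mean of each marker list. Ctrl-MI 1 (grey circles) is the highest array for Ccl9, Ccl6, Ccl8, Cx3cl1 and the macrophage, monocyte and fibroblast lists, while T cell and neutrophil lists stay near 0.

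Genes that carry the chemokine signal inside the cell were lower for 26 of 33 measured, beside 48.2% of all named symbols, with a median of -0.21. The median was -0.05 with Ctrl-MI 1 left out and -0.32 with Ctrl-MI 2 left out. At an unadjusted limma p under 0.05, 3 were lower and 2 higher, beside 5.28% and 3.21% of all named symbols, and 0 passed the adjustment over all probes. Elmo1 and Dock2, whose proteins together activate Rac in migrating leukocytes, had the smallest p. Elmo1 stood at 8.32 and 7.98 in Ctrl-MI and 7.12 and 6.81 in TTg-MI, a difference of -1.18 (SE 0.20). Dock2 stood at 7.91 and 7.89 against 7.11 and 6.93, a difference of -0.88 (SE 0.16). Both were separate between the groups by more than the spread within either. Rgs2, which shortens G protein signals and is widely expressed outside leukocytes, was higher by 0.79 (SE 0.28), with 8.55 and 9.21 against 9.44 and 9.91.

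Genes that induce chemokines through NF-kB were lower for 12 of 16, with a median of -0.32 that was -0.21 with Ctrl-MI 1 left out. At an unadjusted limma p under 0.05, 2 were lower and 1 higher, beside the same shares of all named symbols. The receptors Tlr4 and Il1r1 differed by -0.90 (SE 0.33) and -1.02 (SE 0.39), and the adaptor Traf6 by 0.46 (SE 0.18). For all 3 the groups did not overlap. Tlr4 stood at 11.40 and 10.48 against 10.18 and 9.90, and Il1r1 at 10.09 and 8.97 against 8.71 and 8.30. For both of these receptors Ctrl-MI 1 was the higher control array. Il1b stood at 5.80 and 6.25 against 5.66 and 5.50.

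Proteases that trim chemokines and glycan carriers that hold them were lower for 13 of 15, with a median of -0.36. It was -0.66 with TTg-MI 1 left out and -0.16 with TTg-MI 2 left out. At an unadjusted limma p under 0.05, 4 were lower (beside 5.28% of all named symbols) and 0 higher (beside 3.21%). The syndecans Sdc3 and Sdc1, heparan sulfate proteoglycans of the cell surface, differed by -1.28 (SE 0.26) and -0.55 (SE 0.16). Mmp14, a membrane-bound metalloproteinase, differed by -0.83 (SE 0.19). Sdc3 stood at 12.21 and 11.54 in Ctrl-MI and 10.71 and 10.47 in TTg-MI, without overlap.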

How the data were processed

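The deposited table gives 1 value per probe and array for 4 arrays, read here as log2. The sources name no base, which was inferred from the range of the values. Per the submitters' processing notes, the software was Expression Console 1.4 of Affymetrix. Its normalization, summarization and build settings are not given in the sources. No further normalization or filter was applied. Probes were named from the platform annotation (19572 of 22206). TTg-MI was compared with Ctrl-MI in limma 3.58.1 in R 4.3.3 (two-sided moderated test from lmFit and eBayes), and p-values were adjusted by Benjamini-Hochberg over the 22206 probes, with 0.05 as the threshold. An exact permutation test of 2 arrays against 2 cannot give a p below 0.333. The fit was tested on simulated data.

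The members and lists were chosen with earlier results of these data known. In each role list, members at or above the lower quartile on both arrays of at least 1 group were eligible. Values are given for up to 5 of these with the smallest p, up to 2 with the highest mean, and their paired ligands or receptors. Ccr2, Cxcl5, Ackr4, Cxcl11 and Cx3cr1 were eligible through Ctrl-MI alone, and Ccr10 through TTg-MI alone. In each pathway list, values are given for up to 3 genes. Ccl24, Il1b and members outside this rule were given values after these were seen. Lists of cell type markers are described by counts, medians and levels per array. Summed levels are the log2 of the summed linear values. Promoters were aligned with Biopython 1.88. The alternatives included the filter on dim probes, quantile normalization, centring on the median, the mean of probes, other variance models, the replicate number as a block, a relaxed threshold and leaving out each array.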

Additional observations from a re-analysis of the deposited data

How the results depend on the processing

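Limits came first from the number of arrays and from signal over background: 20 of 60 members lay under the lower quartile on at least 1 array, and with the array median in its place 36 lay under it on all 4, against 6. Leaving out single arrays gave 1 to 332 probes and 0 to 5 members past the adjusted threshold (limma with Benjamini-Hochberg), 6 to 14 members lower and 0 to 1 higher at an unadjusted p under 0.05, and 22 to 36 members below and 12 to 19 above without overlap. Probes past the threshold numbered 4 with an intensity trend and robust prior, 0 without moderation and 7 with the replicate block, and members past it 0 in each. At an unadjusted p under 0.05, 5 members were lower (8.33%, beside 2.91% of all named symbols) and 5 higher (8.33%, beside 2.71%) without moderation. With the replicate block 13 were lower (21.7%, beside 6.78%) and 1 higher (1.67%, beside 4.63%), and with the filter on dim probes 1 of 48 was higher (2.08%, beside 3.21%). The replicate numbers are not known to pair the hearts, and same-numbered arrays deviated from their group means with r = 0.163 across probes. The medians of the members stayed below 0 in every setting run, from -0.27 to -0.08.

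Directions of named members turned only when single arrays were left out. Over these omissions the log2 difference of the members that turned ran for Cxcl9 from -0.33 to 0.035, Cxcl3 from -0.10 to 0.23, Cxcl2 from -0.10 to 0.19, Ackr3 from -1.05 to 0.14, Ackr2 from -0.37 to 0.000203, Ccrl2 from -0.40 to 0.59, Ccl25 from -0.10 to 0.38, Cxcl13 from -2.53 to 0.54, Cxcr4 from -0.17 to 0.74, Ccr7 from -0.11 to 0.47, Cx3cr1 from -0.71 to 0.22, Ccl2 from -0.78 to 0.22, Ccl19 from -0.22 to 0.31, Ccl28 from -0.30 to 0.24, Cxcr2 from -0.29 to 0.22, Cxcr3 from -0.14 to 0.16 and Cxcr5 from -0.085 to 0.23. Of the 44 named members, 8 turned with Ctrl-MI replicate 1 left out, 4 with Ctrl-MI replicate 2 left out, and 5 with each TTg-MI array left out. The cause was not tested.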
